A study of Mus musculus with 4 samples.

Results

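AMPA and kainate receptors are the ion channels that carry most of the fast excitatory current at synapses of the brain. The 9 genes that encode their subunits, *Gria1* to *Gria4* for AMPA receptors and *Grik1* to *Grik5* for kainate receptors, were read from RNA-seq of the hippocampus of wild-type (WT) mice and of mice with a knock-in at *Lsd1* (KI). They were chosen by name and are 9 of the 26328 genes listed in at least 1 sample. The series holds 4 samples, 2 of WT and 2 of KI, all from the hippocampus of male mice labelled C57BL/6. In KI, serine 112 of LSD1 (gene *Kdm1a*), a histone demethylase, is replaced by alanine, so that protein kinase C alpha cannot phosphorylate this site (written Lsd1 SA/SA by the study). The controls were WT littermates, and the WT samples carry no other allele or treatment in the labels. The comparison asks whether the levels of these receptor genes differ between the genotypes. Mice between 8 and 15 weeks of age were used for behaviour, and the age of the sequenced mice, and whether a sample is 1 mouse or a pool, are not given in the sources used here.

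Each receptor is a channel built from 4 subunits around a central pore, which opens when glutamate binds. In the hippocampus most AMPA receptors of pyramidal neurons contain GluA2 (*Gria2*), which makes the channel nearly impermeable to calcium, together with GluA1 (*Gria1*) or GluA3 (*Gria3*), while GluA4 (*Gria4*) is known mainly from interneurons and from early development. Among kainate receptors, GluK1 to GluK3 (*Grik1* to *Grik3*) can form channels on their own, whereas the high-affinity subunits GluK4 (*Grik4*) and GluK5 (*Grik5*) need one of them as a partner. Kainate receptors are best known in the hippocampus from the mossy fiber synapse, where granule cells of the dentate gyrus contact CA3 pyramidal cells.

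The subunits share a short stretch of the pore loop that holds the glutamine/arginine (Q/R) site, at which adenosine deaminases edit the RNA of *Gria2* almost completely and that of *Grik1* and *Grik2* in part. The stretch is shown because it is the best known functional site of the family and because it shows how alike the genes are where reads must be told apart. Each sequence is a window of 45 bases of the spliced reference transcript (GENCODE M21, build GRCm38), 5′ to 3′, with the codon of the Q/R site in capitals.
Gria1: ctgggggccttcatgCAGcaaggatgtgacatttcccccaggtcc
Gria2: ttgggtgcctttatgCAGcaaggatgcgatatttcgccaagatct
Gria3: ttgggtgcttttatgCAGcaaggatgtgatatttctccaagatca
Gria4: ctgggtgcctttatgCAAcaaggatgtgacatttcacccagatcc
Grik1: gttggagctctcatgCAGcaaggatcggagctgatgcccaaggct
Grik2: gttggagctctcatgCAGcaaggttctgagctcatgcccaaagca
The codon lies at chr11:57243094-57243096 (plus strand, exon 11 of 16) in *Gria1*, at chr3:80706911-80706913 (minus strand, exon 11 of 16) in *Gria2*, at chrX:41610265-41610267 (plus strand, exon 11 of 16) in *Gria3* and at chr9:4464137-4464139 (minus strand, exon 12 of 17) in *Gria4*. In *Grik1* it lies at chr16:87940542-87940544 (minus strand, exon 12 of 17) and in *Grik2* at chr10:49244329-49244331 (minus strand, exon 12 of 16). Pairs of AMPA genes matched at 36 to 41 of the 45 bases and pairs of kainate genes, *Grik3* to *Grik5* included, at 25 to 40, while an AMPA and a kainate gene matched at 26 to 31. The codon was located in each gene as the first glutamine of the protein motif MQQG. Glutamine at this codon in the reference of all 9 genes therefore follows from the search. The values of this series are gene levels and hold no bases, so the edited share of the transcripts was not measured.

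Levels are in RPKM, the reads on a gene divided by its exon length in kb and by the mapped total of the library. They are comparable between genes of different length as far as the exon lengths used hold. These lengths can differ from those of GENCODE M21. The values of *Gria2* fit 6956 bp, against 15548 exon bases there, while those of *Gria1* fit the same 6043. RPKM values rise in steps of 1 count, from which mapped totals of 13414957 and 8827967 were derived for the first and second WT samples and of 14381252 and 14949756 for the KI samples, so that WT replicate 2 was the least deeply sequenced. *Kdm1a* itself was at 11.6 and 11.2 RPKM in WT and at 10.97 and 11.17 RPKM in KI, and since the knock-in changes a codon this level does not check the genotype. Markers of the hippocampal subfields were present in every sample. The summed level of 7 markers of the dentate gyrus granule cell was 134.5 and 133.6 RPKM in WT against 90.5 RPKM in KI replicate 1 and 110 RPKM in KI replicate 2, and none of the 7 was at 0 in any sample. Of the 7 genes, 6 were below both WT samples in both KI samples, beside 18.1% of all genes, and *Calb1* overlapped. limma called 0 of the 7 (smallest limma adjusted p = 0.336), beside 0% of all genes. KI replicate 1 also stood apart in the choroid plexus markers, with 60.1 RPKM in sum against 14.0 and 19.7 in WT and 16.4 in KI replicate 2, 51.3 RPKM of it from *Ttr*. Thalamus markers summed to 10.34 and 9.17 RPKM in WT and 15.02 and 12.13 in KI, and striatum markers to 20.2 and 19.0 in WT and 24.4 in each KI sample. The other 10 marker lists (CA1, CA2, CA3, GABAergic interneuron, oligodendrocyte and its precursor, astrocyte, microglia, endothelium and neocortex) summed in KI to between 89.6% and 119% of the WT mean.

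All 9 subunit genes were expressed, over a wide range of levels. *Gria1* had the highest mean level, 227 ± 6.45 RPKM (SD, n = 4), above 99.2% of the genes tested, and *Gria2* followed with 115 ± 7.30 RPKM. *Grik5* came next with 68.3 ± 2.71 RPKM, ahead of *Gria3* with 24.1 ± 1.57 RPKM. *Gria4* (11.5 ± 0.585 RPKM) and *Grik4* (11.3 ± 0.928 RPKM) did not differ beyond their spread, nor did *Grik2* (8.38 ± 0.843 RPKM) and *Grik3* (7.90 ± 0.709 RPKM). *Grik1* was lowest with 4.61 ± 0.385 RPKM. Apart from the pairs *Gria4* and *Grik4*, and *Grik2* and *Grik3*, every gene was above the next in this order in all 4 samples.

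**Figure D1:**
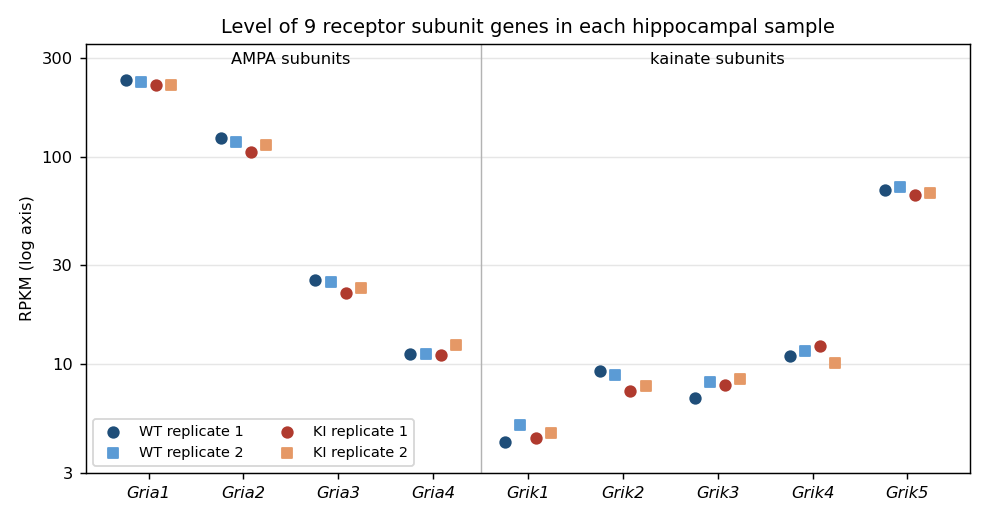
RPKM on a log axis of the 4 AMPA and 5 kainate receptor subunit genes, with 1 point for each sample (blue, WT; red and orange, KI). The genes range from about 4.23 RPKM (*Grik1*, WT replicate 1) to 235 RPKM (*Gria1*, WT replicate 1), and the spacing between genes is far larger than that between samples.

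Groups were compared with limma on log2(RPKM + 1) over 18436 genes, those that reached 0.5 RPKM in 2 samples or more, and a gene was called where the Benjamini-Hochberg adjusted p was under 0.1 and the change at least 1.2-fold. None of the 9 subunit genes was called (0 of 9), and the share of all tested genes called was 0%, with a smallest adjusted p of 0.197. At an unadjusted p under 0.05, 2 of the 9 (*Gria3* and *Grik2*) passed, beside 9.62% of all genes. Both KI samples were below both WT samples for 5 of the 9 genes (*Gria1*, *Gria2*, *Gria3*, *Grik2* and *Grik5*), beside 18.1% of all genes, and both were above for 0 of the 9, beside 24.0% of all genes. The median log2 fold change of KI over WT was -0.06 for the 9 genes and 0.01 for all genes tested. A test on the counts derived from the RPKM values (limma-voom, added after the data had been seen) called 277 genes, 1.5% of those tested, and again 0 of the 9. Without KI replicate 2 that test called 1 of the 9, *Grik2*, beside 4.74% of all genes, and without KI replicate 1 it called 0 of the 9, beside 2.65%. Without WT replicate 1 or WT replicate 2 it called 0 of the 9, beside 0.00542% and 0.0108% of all genes. With 2 samples in each group an exact permutation test of a single gene cannot give a p below 0.333.

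*Gria1* (chr11:57011387-57330244) encodes GluA1, the subunit whose insertion at synapses is best known from long-term potentiation. Its level was 235 and 228 RPKM in the WT samples and 223 and 221 RPKM in the KI samples. Both KI samples were below both WT samples, by a margin smaller than the difference between the WT samples. The WT mean was 232 ± 5.02 RPKM and the KI mean 222 ± 1.09 RPKM (SD, n = 2 each). The log2 fold change was -0.06 (SE 0.05, 95% confidence interval -0.18 to 0.06, limma adjusted p = 0.697), an interval of 0.882-fold to 1.04-fold.

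*Gria2* (chr3:80681450-80802835) encodes GluA2. It was at 124 and 118 RPKM in WT and at 106 and 114 RPKM in KI, in the order of the replicates. The groups did not overlap, but the lower WT and the higher KI sample lay closer to each other than the 2 KI samples did. The mean was 8.55% lower in KI, with a log2 fold change of -0.13 (SE 0.06, 95% confidence interval -0.29 to 0.03, limma adjusted p = 0.564).

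*Gria3* (chrX:41400854-41678601) encodes GluA3, which joins GluA2 in receptors that cycle constitutively at synapses. It was at 25.6 and 25.1 RPKM in WT and at 22.2 and 23.4 RPKM in KI. Here the gap between the groups was larger than the spread within either of them. The mean was 10.1% lower in KI, with a log2 fold change of -0.15 (SE 0.05, 95% confidence interval -0.29 to -0.01, unadjusted p = 0.0429, limma adjusted p = 0.506).

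*Gria4* (chr9:4417896-4796234) encodes GluA4. Its levels were 11.3 and 11.2 RPKM in WT and 11.1 and 12.4 RPKM in KI. The groups overlapped, since KI replicate 1 was the lowest and KI replicate 2 the highest of the 4 samples. The log2 fold change was 0.06 (SE 0.07, 95% confidence interval -0.13 to 0.25, limma adjusted p = 0.831), and its sign rested on KI replicate 2, without which it was -0.01.

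*Grik1* (chr16:87895900-88290265) encodes GluK1. It was at 4.23 and 5.13 RPKM in WT and at 4.43 and 4.65 RPKM in KI, so both KI samples lay between the WT samples. The log2 fold change was -0.03 (SE 0.11, 95% confidence interval -0.31 to 0.25, limma adjusted p = 0.954). Without WT replicate 2 it was 0.08. *Grik1* had the fewest counts of the 9 genes, 178 and 142 in WT and 200 and 218 in KI; an exon length of 3137 bp gives these counts, and a length that is a multiple of it would give multiples of them. The counting error at 142 counts was 8.39%, against 0.906% for *Gria1* in the same sample.

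*Grik2* (chr10:49094833-49788766) encodes GluK2, the main pore-forming kainate subunit of hippocampal principal cells. Its levels were 9.30 RPKM in WT replicate 1 and 8.85 in WT replicate 2, against 7.46 in KI replicate 1 and 7.90 in KI replicate 2. The groups were separated by more than the spread within either of them, as for *Gria3*. The derived counts were 1032 and 646 in WT and 888 and 977 in KI, at an exon length of 8272 bp and with the limit given for *Grik1*. The mean was 15.3% lower in KI, the furthest from WT among the 9 genes, with a log2 fold change of -0.21 (SE 0.07, 95% confidence interval -0.39 to -0.04, unadjusted p = 0.0281, limma adjusted p = 0.489). In limma-voom the log2 fold change was -0.24 with an adjusted p of 0.112, and -0.29 with an adjusted p of 0.0149 when KI replicate 2 was left out; that fit has a lone KI sample, which is assumed to vary like the WT samples.

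*Grik3* (chr4:125490700-125714173) encodes GluK3, a low-affinity subunit. It lies on the chromosome of the mutated gene, 10.8 Mb from *Kdm1a*. It was at 6.90 and 8.23 RPKM in WT and at 7.94 and 8.54 RPKM in KI. The groups overlapped, with WT replicate 1 below the other 3 samples. The log2 fold change was 0.11 (SE 0.10, 95% confidence interval -0.15 to 0.38, limma adjusted p = 0.762), and without WT replicate 1 it was -5.4e-05.

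*Grik4* (chr9:42518135-42944493) encodes GluK4, known from CA3 pyramidal cells. It was at 11.02 and 11.63 RPKM in WT and at 12.3 and 10.1 RPKM in KI. The KI samples were the highest and the lowest of the 4. The log2 fold change was -0.02 (SE 0.10, 95% confidence interval -0.29 to 0.26, limma adjusted p = 0.980), and it changed sign to 0.02 without WT replicate 2 and to 0.11 without KI replicate 2.

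*Grik5* (chr7:25009849-25072346) encodes GluK5, the more widespread of the high-affinity subunits. It was at 69.1 and 71.6 RPKM in WT and at 65.5 and 66.7 RPKM in KI. The groups did not overlap, with a gap of about the size of the spread within WT. The log2 fold change was -0.09 (SE 0.05, 95% confidence interval -0.21 to 0.03, limma adjusted p = 0.589), an interval of 0.865-fold to 1.02-fold.

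On the log2(RPKM + 1) scale, the intervals of *Gria1*, *Gria4* and *Grik5* excluded a change of 1.2-fold in either direction. Those of *Gria2*, *Gria3*, *Grik1*, *Grik2* and *Grik4* reached a decrease of 1.2-fold, and that of *Grik3* an increase of 1.2-fold. A change of that size was thus not excluded for these genes with 2 samples in each group. All 9 intervals excluded a change of 1.5-fold on this scale. Adding 1 understates a change in RPKM, most at low levels. The upper limits of *Gria4*, *Grik1* and *Grik4* were 1.186-fold, 1.188-fold and 1.197-fold. A 1.2-fold increase in RPKM was therefore not clearly excluded for *Gria4*, *Grik1* and *Grik4*.

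**Figure D2:**
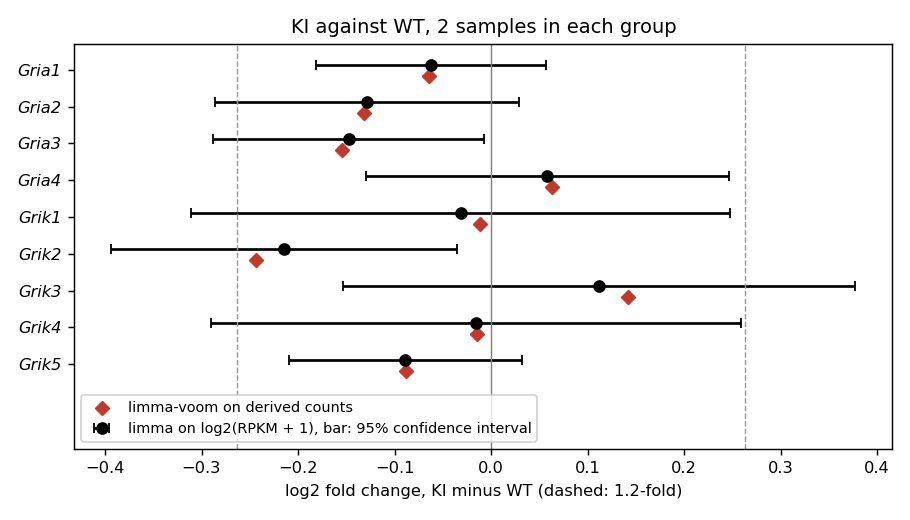
Log2 fold change of KI over WT for the 9 subunit genes by limma on log2(RPKM + 1) (black points, bars are 95% confidence intervals) and by limma-voom on derived counts (red diamonds), with dashed lines at 1.2-fold. The interval lies below 0 for *Gria3* and *Grik2* before adjustment, and the methods differ by less than the intervals for every gene.

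The make-up of each family was then compared as the share of each subunit in the summed RPKM of its family in a sample. *Gria1* took 59.5% and 59.8% of the AMPA sum in WT and 61.5% and 59.6% in KI. *Gria2* took 31.2% and 30.7% in WT and 29.3% and 30.8% in KI. The WT and KI shares of these 2 genes overlapped, and KI replicate 1 stood furthest from the others in both. *Gria3* took 6.47% and 6.56% in WT and 6.13% and 6.30% in KI. *Gria4* took 2.84% and 2.94% in WT and 3.08% and 3.33% in KI. The share of *Gria3* was thus lower in each KI sample than in either WT sample and that of *Gria4* higher, each by under 1 percentage point. Such separation is common with 2 samples in each group. In level, both KI samples were below both WT samples for 18.1% of all genes and above for 24.0%. The shares were not tested. *Gria1* was between 1.90 and 2.10 times the level of *Gria2* in the 4 samples, and *Gria2* between 4.69 and 4.89 times that of *Gria3*.

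Among kainate subunits, *Grik5* took 68.7% and 67.9% of the sum in WT and 67.1% and 68.1% in KI, and the groups overlapped. *Grik4* took 10.95% and 11.02% in WT and 12.6% and 10.4% in KI. *Grik2* took 9.25% and 8.39% in WT and 7.64% and 8.06% in KI, lower in both KI samples. *Grik3* took 6.86% and 7.80% in WT and 8.12% and 8.71% in KI, higher in both KI samples, and *Grik1* took between 4.205% and 4.862%. *Grik2* was therefore above *Grik3* in both WT samples and below it in both KI samples. The levels were close, with *Grik2* and *Grik3* at 8.85 and 8.23 RPKM in WT replicate 2 and at 7.46 and 7.94 RPKM in KI replicate 1. The groups of *Grik3* overlapped in level, and its log2 fold change was -5.4e-05 without WT replicate 1. Neither this order nor the kainate shares were tested. The summed level was 396 and 382 RPKM in WT and 362 and 371 RPKM in KI for AMPA subunits, and 101 and 105 RPKM in WT and 97.67 and 97.96 RPKM in KI for kainate subunits. The ratio of the AMPA to the kainate sum was 3.94 and 3.62 in WT and 3.71 and 3.79 in KI.

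**Figure D3:**
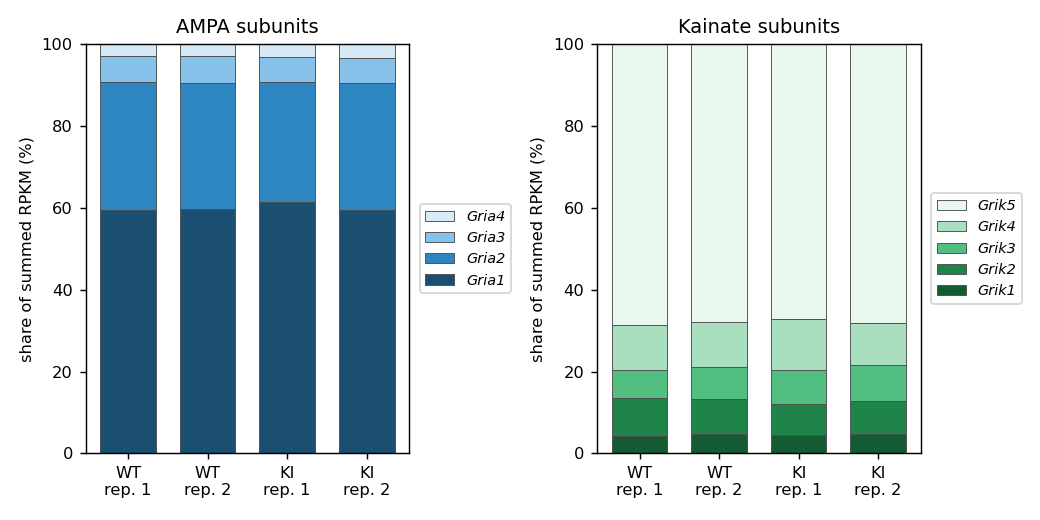
Share of each subunit in the summed RPKM of the 4 AMPA (left) and 5 kainate (right) subunit genes, as stacked bars from 0 to 100% for each sample. *Gria1* fills between 59.5% and 61.5% of every AMPA bar and *Grik5* between 67.1% and 68.7% of every kainate bar.

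The 5 subunit genes that were lower in both KI samples were set beside the dentate gyrus markers, since 6 of those 7 markers were also lower in both KI samples. As a percent of the WT mean, *Grik2* was at 82.3% in KI replicate 1 and 87.1% in KI replicate 2, *Gria3* at 87.5% and 92.3%, and *Gria2* at 88.0% and 94.9%. *Grik5* was at 93.1% and 94.8%, and *Gria1* at 96.1% and 95.4%. The summed dentate gyrus markers were at 67.5% and 82.3%, and at 65.6% and 83.4% without *C1ql2*, which is also a partner of kainate receptors. In 4 of these 5 subunit genes, as in the marker sum, KI replicate 1 was further below WT than KI replicate 2. This order was not particular to them. KI replicate 1 was also the lower KI sample for *Gria4* (99.1% and 110.1%), *Grik1* (94.8% and 99.4%) and *Grik3* (104.9% and 112.8%). It was the higher for *Grik4* (108.9% and 89.6%). The share of all genes with this order is not given here. In whole tissue, fewer cells of a type and less RNA per cell cannot be told apart, and the part of the dentate gyrus markers in the levels of the subunit genes was not tested.

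**Figure D4:**
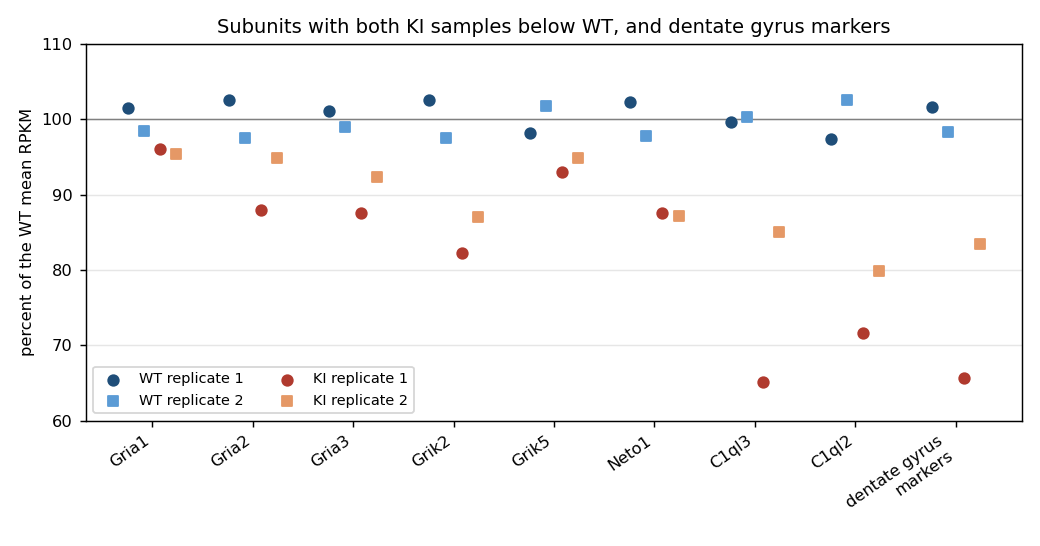
Level in each sample as a percent of the WT mean for the 5 subunit genes with both KI samples below WT, for *Neto1*, *C1ql3* and *C1ql2*, and for the sum of 6 dentate gyrus markers without *C1ql2*; the vertical axis starts at 60%. The KI samples of the subunit genes sit between 82.3% and 96.1%, above those of the marker sum in KI replicate 1 (65.6%).

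Receptor subunits work with auxiliary subunits and with proteins that assemble, move and anchor them, and 37 such genes in 6 lists were read from the same fit. limma called 0 of the 37, beside 0% of all genes. At an unadjusted p under 0.05 in limma, 11 passed (5 higher and 6 lower in KI), beside 9.62% of all genes. Of all genes that passed, 1161 were higher and 613 lower. limma-voom called 5 of the 37, *Cacng5* and *Grid2ip* as higher and *C1ql2*, *C1ql3* and *Adarb2* as lower in KI, against 1.5% of all genes. Fits without WT replicate 1 or WT replicate 2 have a lone WT sample, and no call is read from them. In the order named, the limma-voom log2 fold changes were 1.13, 0.87, -0.44, -0.43 and -0.58 without WT replicate 1. Without WT replicate 2 they were 0.73, 0.69, -0.37, -0.42 and -0.28. Both KI samples were above both WT samples for 9 of the 37, beside 24.0% of all genes, and below for 12, beside 18.1%. The median log2 fold change of the 37 was -0.03. *Klhl17*, a further gene of the kainate list, was not analysed here.

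The AMPA auxiliary subunits are the transmembrane proteins that set the gating and surface number of AMPA receptors. Of the 13 genes, 4 had an unadjusted p under 0.05, all higher in KI, beside 9.62% of all genes, most of which were also higher, and the median log2 fold change was 0.06. *Cacng5*, encoding the receptor-modulating protein gamma-5, was at 3.99 and 3.01 RPKM in WT and at 8.80 and 5.04 RPKM in KI, a log2 fold change of 0.78 (SE 0.26, limma adjusted p = 0.490, limma-voom adjusted p = 0.0487). KI replicate 1 was the highest and the KI samples differed more from each other than the WT samples did. *Cacng5* is also a marker of the CA2 subfield, whose 4 markers summed to 167 and 164 RPKM in WT and to 182 and 191 RPKM in KI. This sum includes *Cacng5* itself, and most of it is *Pcp4* (112 and 110 RPKM in WT, 120 and 133 RPKM in KI). *Rgs14* and *Pcp4* were higher and *Amigo2* lower in both KI samples. The part of CA2 in the level of *Cacng5* was not tested. *Cacng4* (gamma-4) was at 5.44 and 5.77 RPKM in WT and at 6.85 and 7.17 RPKM in KI, a log2 fold change of 0.28 (SE 0.07, limma adjusted p = 0.435). *Prrt1*, also known as SynDIG4, was at 99.8 and 96.5 RPKM in WT and at 109 and 110 RPKM in KI, a log2 fold change of 0.16 (SE 0.04, limma adjusted p = 0.464). Neither was called by limma-voom with all samples, and *Cacng4* was called without KI replicate 1. *Cacng8* (gamma-8), the main auxiliary subunit of hippocampal AMPA receptors, was the only one of the 13 to be lower in both KI samples, with 80.87 and 80.02 RPKM in WT and 75.8 and 70.8 RPKM in KI (chosen after its values were seen).

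The 12 genes of AMPA receptor assembly and trafficking had a median log2 fold change of -0.02. In limma 0 of them had an unadjusted p under 0.05, beside 9.62% of all genes, and a list of 12 is too short to tell these shares apart. *Grip1* and *Grip2*, scaffolds that bind the tails of GluA2 and GluA3, had fold changes of opposite sign. *Grip1* was at 4.01 and 3.92 RPKM in WT and at 3.47 and 3.28 RPKM in KI, a log2 fold change of -0.18 (SE 0.08, limma adjusted p = 0.552). *Grip2* was at 2.727 and 3.002 RPKM in WT and at 3.58 and 3.36 RPKM in KI, a log2 fold change of 0.21 (SE 0.09, limma adjusted p = 0.546). *Frrs1l*, which acts in the assembly of AMPA receptors in the endoplasmic reticulum, was at 65.6 and 60.7 RPKM in WT and at 60.3 and 56.7 RPKM in KI, a log2 fold change of -0.11 (SE 0.06, limma adjusted p = 0.628). None of these 3 differences passed the test.

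The neuronal pentraxins are secreted or membrane-bound proteins that cluster AMPA receptors from outside the cell. *Nptx1* was at 145.4 and 141.9 RPKM in WT and at 128 and 129 RPKM in KI, a log2 fold change of -0.16 (SE 0.04, limma adjusted p = 0.436, limma-voom adjusted p = 0.0831). This change was smaller than 1.2-fold, so *Nptx1* was not called by limma-voom. *Nptxr*, the pentraxin receptor, was at 191 and 189 RPKM in WT and at 171 and 177 RPKM in KI, a log2 fold change of -0.13 (SE 0.05, limma adjusted p = 0.506). *Nptx2* was at 9.94 and 10.7 RPKM in WT and at 12.0 and 8.63 RPKM in KI, and its groups overlapped (log2 fold change -0.02, SE 0.16, limma adjusted p = 0.985).

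Of the 4 kainate partners tested, 3 were lower in both KI samples, beside 18.1% of all genes, and the median log2 fold change was -0.29. *C1ql2*, a dentate gyrus marker, is among the 3. *C1ql2* and *C1ql3* encode secreted proteins by which mossy fibers recruit kainate receptors. *C1ql2* was at 41.8 and 44.0 RPKM in WT and at 30.7 and 34.2 RPKM in KI, a log2 fold change of -0.39 (SE 0.07, limma adjusted p = 0.336, limma-voom adjusted p = 0.0117). *C1ql3* was at 39.0 and 39.2 RPKM in WT and at 25.5 and 33.3 RPKM in KI, a log2 fold change of -0.41 (SE 0.13, limma adjusted p = 0.489, limma-voom adjusted p = 0.0310). Without KI replicate 1, limma-voom still called *C1ql2* but not *C1ql3*. Of the 7 dentate gyrus markers, limma called 0, beside 0% of all genes. limma-voom called 5 of them as lower in KI, *C1ql2* included, beside 1.5% of all genes called in either direction. *Neto1*, the auxiliary subunit that slows kainate receptor currents, was at 22.5 and 21.6 RPKM in WT and at 19.3 and 19.2 RPKM in KI, a log2 fold change of -0.19 (SE 0.05, limma adjusted p = 0.466), and was not called by either method. *Neto2* overlapped between the groups, with 8.62 and 7.71 RPKM in WT and 9.37 and 7.14 RPKM in KI (chosen after its values were seen).

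The delta receptors are the relatives of AMPA and kainate receptors that act as synaptic organizers. *Grid1* was at 13.3 and 13.8 RPKM in WT and at 13.1 and 13.2 RPKM in KI, with a log2 fold change of -0.04 (SE 0.06, limma adjusted p = 0.856). *Grid2ip*, which encodes a postsynaptic scaffold protein, was at 1.21 and 1.07 RPKM in WT and at 2.18 and 1.77 RPKM in KI. Its log2 fold change was 0.47 in limma (SE 0.12, limma adjusted p = 0.435) and 0.76 in limma-voom (adjusted p = 0.0545), the first being smaller because adding 1 to a low RPKM understates the change.

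Of the enzymes that edit adenosine in RNA, *Adarb1* (ADAR2), which edits the Q/R codon of *Gria2* printed above, was at 18.3 and 18.2 RPKM in WT and at 18.9 and 16.8 RPKM in KI, with a log2 fold change of -0.03 (SE 0.07, limma adjusted p = 0.925). *Adar* (ADAR1) was at 30.5 and 31.1 RPKM in WT and at 25.5 and 32.1 RPKM in KI, with a log2 fold change of -0.10 (SE 0.12, limma adjusted p = 0.808). KI replicate 1 was below the other 3 samples for *Adar*, and the groups overlapped for both genes. *Adarb2* (ADAR3), which binds RNA without known editing activity, was at 2.94 and 3.62 RPKM in WT and at 2.33 and 2.53 RPKM in KI, a log2 fold change of -0.32 (SE 0.12, limma adjusted p = 0.511, limma-voom adjusted p = 0.0831).

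**Figure D5:**
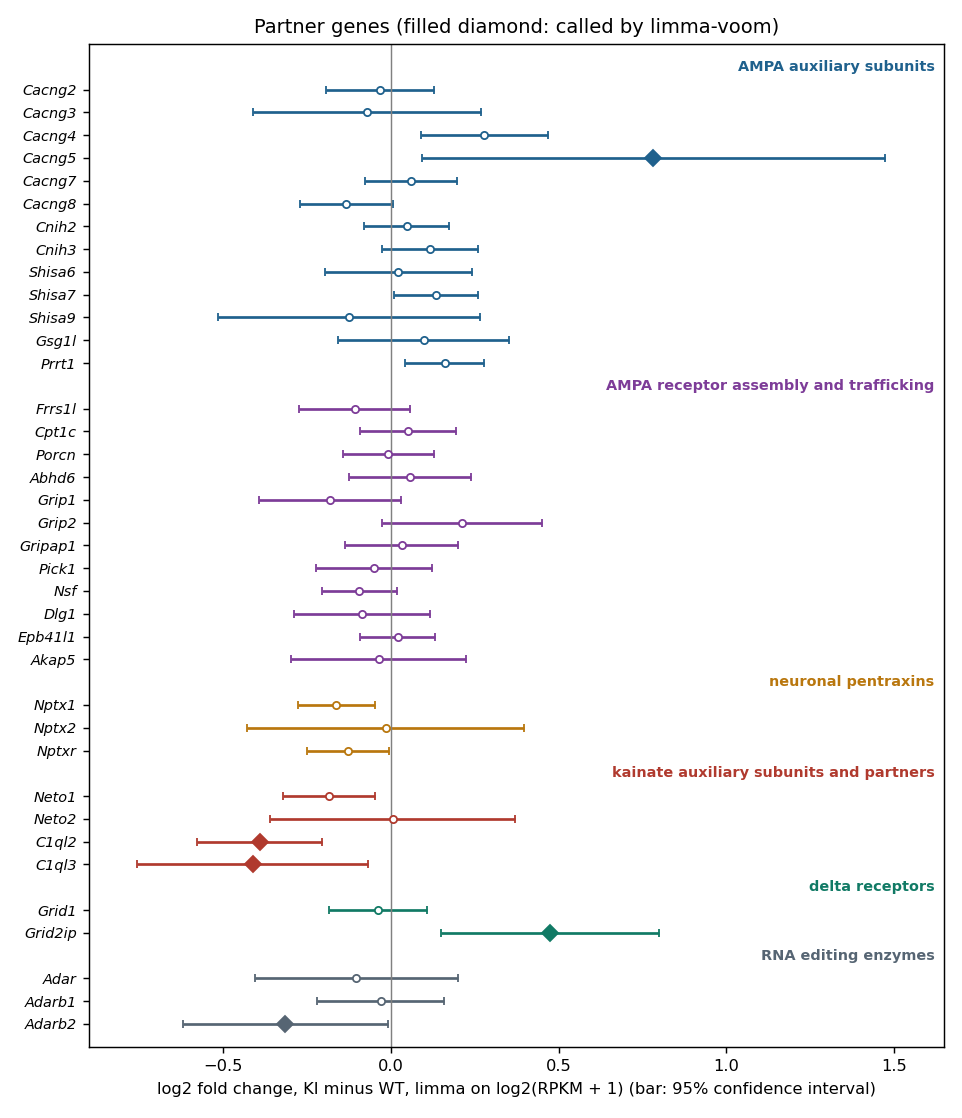
Log2 fold change of KI over WT by limma for the 37 partner genes in 6 lists, with 95% confidence intervals, where a filled diamond marks the 5 genes called by limma-voom. *Cacng5* (0.78) and *Grid2ip* (0.47) lie furthest to the right and *C1ql3* (-0.41) and *C1ql2* (-0.39) furthest to the left.

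For each subunit, the partner whose profile was most alike was found as the smallest root mean square difference of the centred log2(RPKM + 1) values over the 4 samples, a description of these libraries only. *Gria3* lay nearest to *Nptxr* (0.0125), which was also nearest to *Gria2* (0.0278), and *Gria1* lay nearest to *Pick1* (0.0168). *Grik2* lay nearest to *Neto1* (0.0315) and *Grik5* to *Grid1* (0.0253). *Gria4* lay nearest to *Abhd6* (0.0259), *Grik1* to *Dlg1* (0.0439), *Grik4* to *Adarb1* (0.0467) and *Grik3* to *Cnih3* (0.0575). For comparison, the median difference of *Gria3* from the 37 partners was 0.109 and that of *Grik2* was 0.129. Among the subunit genes themselves, *Gria2* and *Gria3* were each other's nearest (0.0220).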

How the data were processed

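Poly(A) RNA of the hippocampus of 2 WT and 2 KI samples was sequenced as read pairs. The authors aligned them to mm10 with GSNAP (CASAVA is also named in the submitters' processing notes) and kept unique and proper pairs. They deposited RPKM per gene of Ensembl release 74 for each sample. The counting tool is not given in the sources used here. A gene absent from a sample was set to 0. Since RPKM is a count divided by exon length and mapped total, whole counts were derived for 26327 of 26328 genes (tolerance 1e-06), 15467 of them at the exon length of GENCODE M21. These gave the depths and, through limma-voom, an added alternative.

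KI and WT were compared with limma (version 3.58.1, R version 4.3.3) on log2(RPKM + 1) with a mean-variance trend over the 18436 genes that reached 0.5 RPKM in 2 samples or more, with Benjamini-Hochberg adjustment over all of them. A gene was called at an adjusted p under 0.1 where it also changed 1.2-fold or more. The fit was tested on simulated data. Summaries used Python 3.11.15, pandas 2.3.3 and numpy 2.4.6. Nothing states that samples came from separate animals, so p-values measure only the spread between these samples. The 9 members, the partner lists and the marker lists were chosen with earlier results of these data known. Partner genes were named as the 3 with the largest absolute log2 fold change in each list, together with the gene nearest in profile to each subunit. A further gene of the partner lists is not reported here. Of the exon bases of a subunit gene, between 0 and 0.990% are shared with another annotated gene.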

Additional observations from a re-analysis of the deposited data

How the results depend on the processing

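The alternatives were another pseudocount, other filters, scalings and fold thresholds, no mean-variance trend, a replicate block, leaving out each sample, and, chosen after seeing the data, limma-voom with all samples and without each. The count of 0 called genes became 1 with at least 10 counts in every sample, 20 (17 higher, 3 lower) without the mean-variance trend and 277 (210 higher, 67 lower) in limma-voom, where 5 partner genes were called. Leaving out 1 sample, with or without voom, gave 0 to 874 genes, 0 to 1 subunit gene and 0 to 8 partner genes. With voom these were 1 and 2 genes without WT replicate 1 and 2, 488 (5 partners) without KI replicate 1 and 874 (8 partners, and *Grik2*) without KI replicate 2. The cause was not tested.

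Of the 144 alternative values of the 9 subunits, 132 kept their direction and side of the threshold, 1 passed it and 11 changed sign, all without 1 sample. These lay in ranges of -0.013 to 0.14 for *Gria4*, -0.18 to 0.10 for *Grik1*, -0.00022 to 0.25 (0.22 without voom) for *Grik3* and -0.15 (-0.14 without voom) to 0.13 for *Grik4*. The reversed values were -0.011 and, with voom, -0.013 for *Gria4*, 0.083, 0.10 and 0.022 for *Grik1*, -5.4e-05 and -0.00022 for *Grik3*, and 0.0204, 0.0205, 0.11 and 0.13 for *Grik4*. The difference in the share of *Gria2* ranged from -1.69 to -0.17 percentage points and that of *Grik5* from -1.26 to -0.21. Under quantile normalization 4 subunits, without *Gria1*, had both KI samples below WT.

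The replicate number as a block gave 0 called genes, subunits and partners. Deviations of samples with the same number correlated at r = -0.0249 over 18436 genes, so the numbers were not taken to pair the samples. The low depth of WT replicate 2 limits *Grik1* most among the 9 subunits.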
